A study of Glycine max with 24 samples.

Results

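The leaf transcripts of LD and LDX, the 2 parents of a soybean (Glycine max) recombinant inbred population, were compared in mock-treated leaves. The libraries compared were the 3 LD and the 3 LDX mock libraries, 6 of the 24 in the series, chosen by their labels. They were fitted together with the 6 mock libraries of 2 inbred lines, which entered the filter on low counts and the estimate of spread. The table covered 41743 transcripts of 41550 loci. The other libraries come from the same parents after treatment with microbe-associated molecular patterns (MAMP) and from these lines, R-11268 and R-11272, with and without that treatment. All plants were 3 weeks old and grew under a photoperiod of 16 h. Per the labels, trifoliolate leaves of 5 plants of a line were infiltrated with water, pooled, cut, floated overnight on water and then held for 30 min in 5 ml of water with DMSO, the solvent of the peptide used in the treated leaves. Both parental groups therefore share detachment, cutting and solvent, and a library stands for a pool of plants, not for 1 plant. The labels give no further name or pedigree for LD and LDX.

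A recombinant inbred line comes from a cross followed by repeated selfing. At most loci it is fixed for the allele of 1 parent, and neighbouring loci tend to come from the same parent, because few crossovers separate them. Where the parents differ in the level of a transcript, inbred lines that carry different parental alleles at the controlling locus are expected to differ as well. When the controlling variant lies in or near the gene, the level follows the parental origin of that stretch of chromosome.

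The identifiers carry a chromosome number and a locus number that rises along the chromosome, so in Glyma02g03230.1 the digits before the g give chromosome 2, those after it the locus, and the last digit the transcript model. Neither number is a base position. The reference table holds other identifiers (0 matched), so genes are given by identifier or number and no function is assigned. For the same reason the labelled tissue could not be checked against leaf marker genes. Reads from near-identical copies may be split or shared between loci in a way the sources used here do not describe, and the values of such loci are uncertain.

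The 6 parental libraries held 9780810 (LD replicate 2) to 19078024 (LDX replicate 1) estimated counts, and 36729 to 38543 transcripts exceeded 1 estimated count. The libraries of a line did not resemble each other equally. Levels are given as CPM, the count of a transcript relative to its library's total. On the log2 CPM scale, the median SD of a transcript over the 3 libraries was 0.164 in R-11268, 0.261 in LD, 0.415 in R-11272 and 0.511 in LDX. The deposited values are fitted values, in which the MAMP and mock libraries of a pool share their deviation, so this spread is that of a pool over both treatments. A single component held 74.6% of the variance within lines. LDX replicate 3 (score 149), R-11272 replicate 1 (140) and LD replicate 2 (66.1) stood at its positive end, while the scores of the other 9 mock libraries ran from -92.4 to 11.9. Deviations within a line cancel out, so a high score goes with low scores in the same line. Each of these 3 libraries had the lowest mean correlation with the others of its line (0.841, 0.86 and 0.948, in that order). For LD replicate 2 this value was still above that of every LDX and R-11272 library, so it stood apart least. Counts of calls are given with and without these 3 libraries, called apart by the positive end of the component. The part of this component in the parental differences was not tested. The labels do not say that replicates of a line were grown separately, so p-values measure the spread between these pools. That spread is 1 estimate per transcript over all 4 lines, not that of the parental pools alone. It can understate the spread of LDX, whose median SD was the largest. Variation of a mock library apart from its pool is absent from the fitted values. The p-values do not count it and may be too small.

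Most leaf transcripts were not called different between the parents. Of 32172 tested, 483 (1.5%) stood higher in LD and 520 (1.62%) in LDX, 1003 in all or 3.12% (edgeR quasi-likelihood test over the 12 mock libraries, Benjamini-Hochberg adjusted p under 0.05). Most of the called differences were large, with 893 of 2-fold or more (2.78% of those tested, 1.35% higher in LD and 1.42% higher in LDX), 456 of 4-fold or more and 286 of 8-fold or more. The 3 LD and 3 LDX libraries did not overlap for any of the 1003, against 5671 of all transcripts tested (17.6%, of which LD was above for 8.23% and LDX for 9.4%). The typical transcript differed little, with a median absolute log2 fold change of 0.291. At an unadjusted p under 0.05 edgeR counted 4242 transcripts. In simulated counts the fit called 1 of 67 changes of 2-fold and 64 of 66 of 8-fold. These counts were drawn independently for each library, with the same spread in all lines. The deposited values differ in both respects, so the simulated rates need not hold for them. Small differences can thus go uncalled, and the sizes of the called ones partly reflect what the test can detect.

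The number called depended on which libraries were fitted. On the 6 parental libraries alone it was 382, with LD above for 215 and LDX above for 167, and 372 of these were among the 1003. Most of the calls were thus not made without the inbred lines in the fit. Leaving them out changes the estimate of spread, its degrees of freedom, the filter and the scaling together, and these parts were not separated. Without LD replicate 1 there were 537 calls, 301 with LD above and 236 with LDX above. Without the 3 libraries that stood apart the number was 2682, with LD above for 1551 and LDX above for 1131, and 917 of the 1003 were among them. The slight lean towards LDX therefore turned towards LD in all 3 settings, and no lean between the parents is read from these counts.

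The share of transcripts called was lower at higher levels. Of the transcripts with a mean below 1 CPM over both parents, 273 of 3171 (8.61%) were called, all by 2-fold or more. The share was 4.2% at 1 to 10 CPM (561 of 13357), 1.14% at 10 to 100 CPM (158 of 13896) and 0.629% above 100 CPM (11 of 1748). The filter on low counts admits a scarce transcript more readily when it is high in 1 line. With no filter that share was 5.33% (672 of 12598), against 4.51%, 1.23% and 0.579% in the higher classes. Above 100 CPM, 9 of the 11 calls were higher in LD, against 483 of all 1003 calls. This direction was not counted in other settings, and no lean is read from it. Of the 100 most abundant transcripts, which held 16.2% of the summed level, 1 was called, and their median absolute log2 fold change was 0.251.

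For some called transcripts a parent was at 0 after rounding. The 3 LDX libraries held no rounded count for 79 transcripts called higher in LD, and the 3 LD libraries held none for 60 called higher in LDX. Fitted fold changes of these transcripts depend on a small added count, and they form the straight lines of points in the plot of difference against level. With them left aside, LD exceeded LDX by 2-fold or more for 356 transcripts and LDX exceeded LD for 398, and the median absolute log2 fold change of the called transcripts was 1.64. A wider class held at least 30 estimated counts over the 3 libraries in 1 parent and at most 3 in the other, a choice that fixes a difference. It had 104 transcripts on the LD side, of which 94 were called, and 85 on the LDX side, of which 68 were called. Its members were scarce, with a median total of 85.8 estimated counts over the LD libraries and 80.9 over those of LDX. Only 12 of the LD side and 7 of the LDX side exceeded a mean of 10 CPM in the parent that held them.

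**Figure D1:**
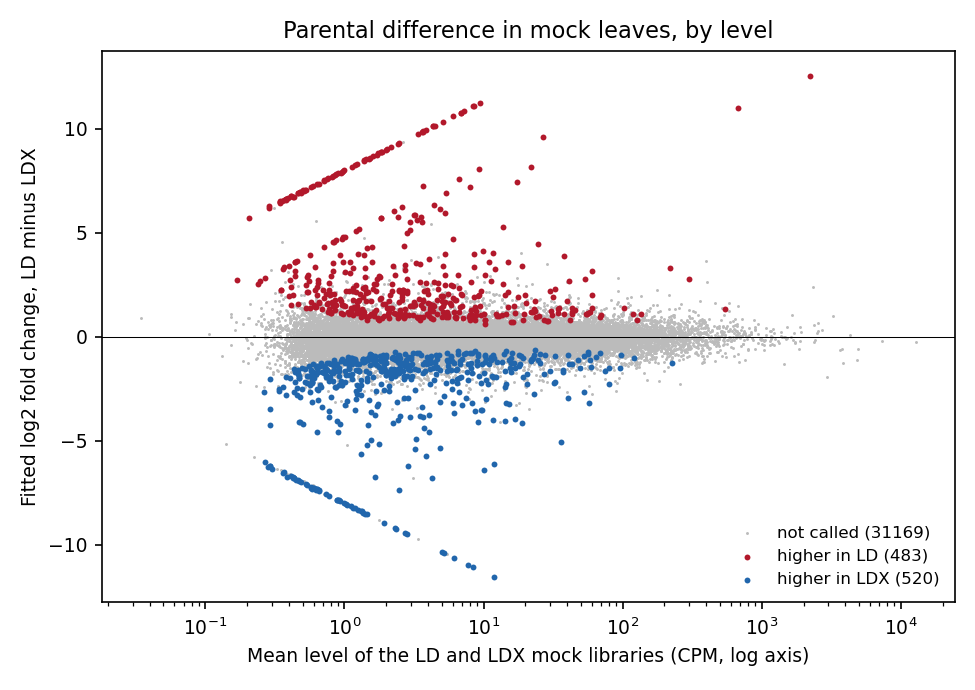
Each point is 1 of the 32172 tested transcripts, with the mean CPM of the LD and LDX mock libraries on a log axis and the fitted log2 fold change, LD minus LDX, on the other. The 483 red and 520 blue points are called higher in LD and in LDX and lie mostly at low levels, and the straight lines of points at the edges are transcripts at 0 in 1 parent.

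Among the called transcripts, Glyma02g03230.1 on chromosome 2 had the largest difference in mean level. Transcripts that were not called were not ranked. It stood at 4587, 4404 and 4460 CPM in the LD libraries and at 0.977, 0.587 and 0.631 CPM in the LDX libraries. The groups were far apart and the LD pools lay close together. The fitted log2 fold change was 12.55 with an SE of 0.72 (edgeR adjusted p = 1.29e-05), and the counting interval of the ratio was 4282 to 8305 (95%, exact, counting error only). R-11268 was at 4113 ± 772 CPM and R-11272 at 1.21 ± 0.829 CPM (SD, n = 3), so 1 inbred line held a level near that of LD and the other a level near that of LDX. After MAMP treatment, LD stood at 5214 to 5587 CPM and LDX at 1.87 to 3.30 CPM (scaled over all 24 libraries), in pools shared with the mock libraries. Apart from scaling and rounding, the spread within these ranges repeats that of the mock libraries, because the values are fitted.

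Glyma04g35130.1 on chromosome 4 was next. The LD libraries held 2269, 610.2 and 1183 CPM, and those of LDX held 0.698, 0.293 and 0.992 CPM. LD pools varied by severalfold, yet the lowest was far above the highest LDX pool. The log2 fold change was 11.01 with an SE of 0.84 (edgeR adjusted p = 5.38e-05; counting interval of the ratio 1702 to 3556). Unlike the first transcript, it was abundant in both inbred lines, at 1100 ± 280 CPM in R-11268 and 1434 ± 561 CPM in R-11272 (SD, n = 3), and the inbred lines were not called different (edgeR adjusted p = 0.754). Of the 4 lines, LDX alone lacked a high level.

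Among the calls higher in LDX, the largest differences in level were smaller. Glyma18g16060.1 on chromosome 18 held 127.8, 148.9 and 121.5 CPM in the LD libraries and 235.5, 313.2 and 403.3 CPM in those of LDX. The groups did not overlap, though LDX pools spread widely. Its log2 fold change was -1.26 with an SE of 0.23 (edgeR adjusted p = 0.0152), and the call was lost without LD replicate 1 (adjusted p = 0.089), without LD replicate 3 (0.0751) and on the 6 parental libraries alone (0.208). R-11268 stood at 273 ± 23.8 CPM, near LDX, and R-11272 at 106 ± 7.09 CPM, near LD (SD, n = 3). This is the reverse of the pattern of Glyma02g03230.1, and the inbred lines were called different (log2 1.36, edgeR adjusted p = 0.023).

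Glyma15g09700.1 on chromosome 15 stood at 33.4, 20.4 and 27.3 CPM in LD and at 130.6, 117.8 and 146.1 CPM in LDX. The highest LD library was well below the lowest LDX library. The log2 fold change was -2.28 with an SE of 0.34 (edgeR adjusted p = 0.00445). R-11268 held 106 ± 55.3 CPM and R-11272 held 45.5 ± 3.01 CPM (SD, n = 3), and this difference was not called (edgeR adjusted p = 0.175).

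**Figure D2:**
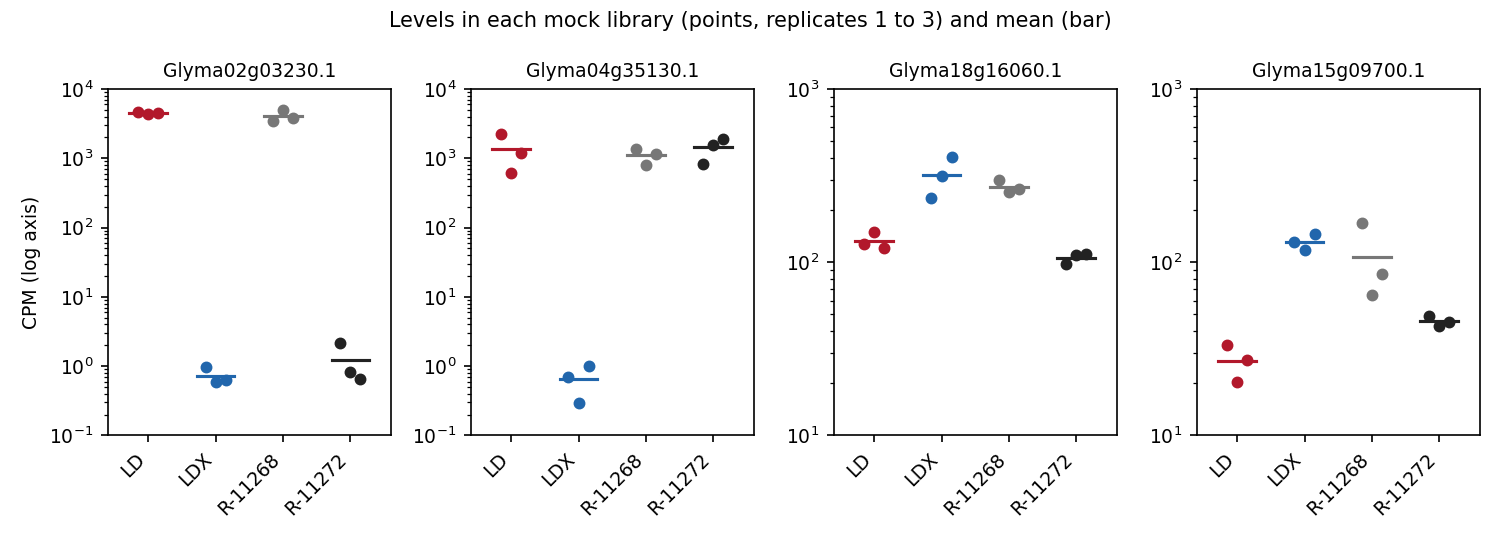
Level in CPM on a log axis of 4 transcripts in the 12 mock libraries, with 1 point for each of the 3 replicates of a line and a bar at the mean. The LD and LDX points are apart in all 4 panels, and R-11272 lies near LDX for Glyma02g03230.1 but near LD for Glyma18g16060.1.

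The parental differences were unevenly spread over the 20 chromosomes. Chromosome 18 had 1795 tested transcripts, and 98 of them (5.46%) passed with 2-fold or more, 56 higher in LD and 42 higher in LDX, against 2.76% over all chromosomes. Chromosome 3 followed with 3.97%, chromosome 20 with 3.82% and chromosome 14 with 3.8%. The lowest shares were 1.61% on chromosome 7 (26 of 1612), 1.63% on chromosome 9 and 1.78% on chromosomes 10 and 17. The share of chromosome 18 stayed the highest of the 20 when any LD or LDX library was left out, at 3.52% (without LD replicate 1) to 5.39%, and was 8.64% without the 3 libraries that stood apart, where the lowest share was 3.56% (chromosome 9). On the 6 parental libraries alone, chromosome 18 had 2.61% and chromosome 7 the lowest share, 0.384%. Among transcripts that averaged 100 estimated counts or more, chromosome 4 (1.14%) and chromosome 18 (1.11%) were nearly level.

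The direction of the differences by chromosome depended on the libraries fitted. Chromosome 3 had 37 transcripts higher in LD against 20 in LDX, and chromosome 1 had 30 against 18. Without the 3 libraries that stood apart these became 75 against 25 and 64 against 26, in the same direction. Chromosome 13 had 16 on the LD side and 33 on the LDX side and chromosome 14 had 18 and 31, but both turned without those libraries, to 72 and 38 and to 47 and 42. The larger count was that of LD on 9 chromosomes and that of LDX on 11. Without LD replicate 1 it was that of LD on 11 and that of LDX on 8, with 1 tie, and without the 3 libraries apart it was that of LD on all 20, so no pattern over chromosomes is read from it. Of 87 tested transcripts on unplaced scaffolds, 10 (11.5%) were called, against 3.12% over all transcripts, and 8 (9.2%) with 2-fold or more, against 2.78%.

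**Figure D3:**
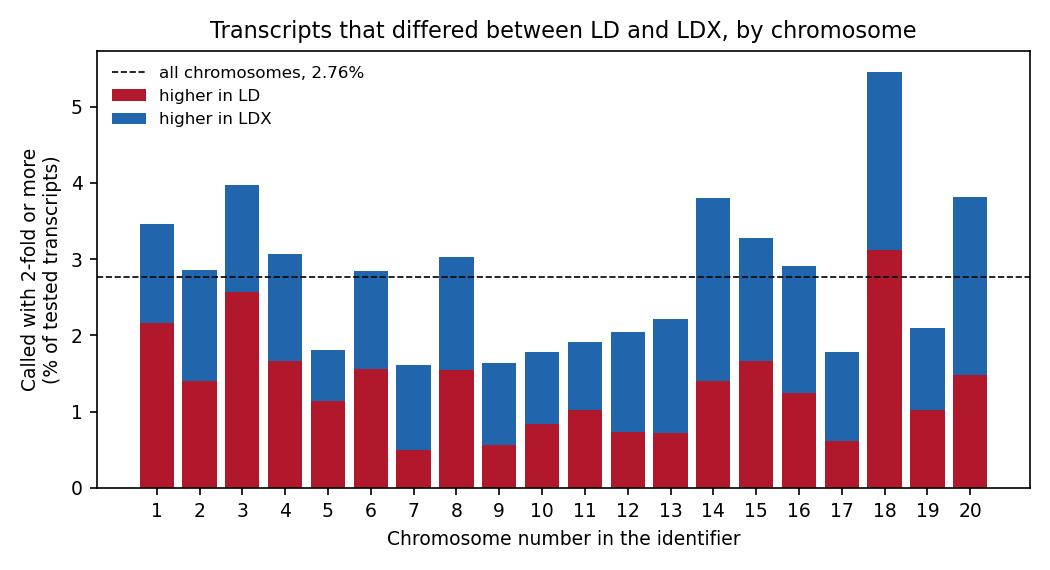
Bars give, for each chromosome number in the identifiers, the percentage of its tested transcripts that passed with 2-fold or more, split into higher in LD (red) and higher in LDX (blue). The dashed line marks 2.76% over all chromosomes, and the bar of chromosome 18 reaches 5.46%.

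Loci that differed tended to be neighbours by number. Of 884 loci called with 2-fold or more on the chromosomes, 193 (21.8%) had a called locus directly before or after them among the tested loci. Of the loci not called, 4.82% had a called neighbour. The 884 are 2.76% of the 31993 loci tested. Called loci next to each other formed 108 adjacent pairs, in which 88 pairs were higher in the same parent and 20 in opposite parents. Most of these runs were short, with 70 runs of 2 loci, 10 of 3, 4 of 4 and 1 of 7. Tandem copies of a gene can sit next to each other and share reads, and their part in these runs was not tested.

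The longest run lay on chromosome 14 from locus 4620 to locus 4750, where 7 consecutive tested loci were all higher in LDX. Locus 4740 held 0.331, 0.219 and 0.41 CPM in LD and 11.6, 5.92 and 3.88 CPM in LDX. The lowest LDX library stood far above the highest LD library, although LDX pools differed among themselves. The log2 fold change was -4.41 with an SE of 0.52 (edgeR adjusted p = 0.000874). Over the 7 loci, log2 fold changes ran from -4.41 to -2.5, and edgeR adjusted p from 0.000874 to 0.0426. The run was whole in 8 of 24 alternatives. In the others the longest piece within it was of 4 loci or fewer, as it was without LD replicate 3, where 3 of the 7 were called. At all 7, both inbred lines lay nearer to LDX than to LD. Locus 4710, the most abundant of the run, was at 0.901 ± 0.146 CPM in LD, and 11.5 ± 6.28 in LDX (SD, n = 3), and the means were 8.34 CPM for R-11268 and 10.7 CPM for R-11272.

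The densest stretch was on chromosome 3. The tested loci of each chromosome were divided by number into blocks of 50, which gave 631 blocks with a median of 1 called locus, and 233 blocks had 0. In the block from locus 5050 to locus 6600 of chromosome 3, 16 of 50 loci (32%) were called, 15 of them higher in LD. The next block, from 6620 to 9410, had 10, of which 9 were higher in LD. Within the first block, locus 5750 held 6.4, 8.42 and 6.92 CPM in the LD libraries and 0 in all LDX libraries. Set against 3 counts in the LDX libraries together, the level in LD was at least 116-fold higher (edgeR adjusted p = 1.06e-05). Locus 5350 stood at 7.5, 4.7 and 5.16 CPM in LD and at 0.186, 0.176 and 0.0902 CPM in LDX (log2 5.13, edgeR adjusted p = 0.000215). Both loci were present in both inbred lines, at 5.45 and 7.92 CPM for locus 5750 and at 4.05 and 4.2 CPM for locus 5350, in R-11268 and R-11272 in that order. All 16 called loci of the first block were nearer to LD in R-11272, and 13 of the 16 in R-11268.

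Other full blocks leaned to LDX, to LD or to neither. On chromosome 20, from locus 24580 to locus 25440, 10 loci were called and 9 were higher in LDX, and 4 were called on the 6 parental libraries alone. On chromosome 2, from 2660 to 3370, 8 were called and 7 were higher in LD, and this block holds the locus of Glyma02g03230.1. The chromosome 2 block had 4 calls without LD replicate 1, 5 without LD replicate 2, 5 without LDX replicate 3, 5 without each R-11268 library in turn and 4 on the 6 parental libraries alone. On chromosome 18, from 8630 to 10120, 8 were called, 3 of them higher in LD and the other 5 in LDX, and 7 of the 8 differed by 8-fold or more. Blocks with 5 or more called loci were 5.55% of all blocks and held 25.4% of the called loci in blocks. Choosing blocks by their calls raises this share, and no expected share was computed.

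**Figure D4:**
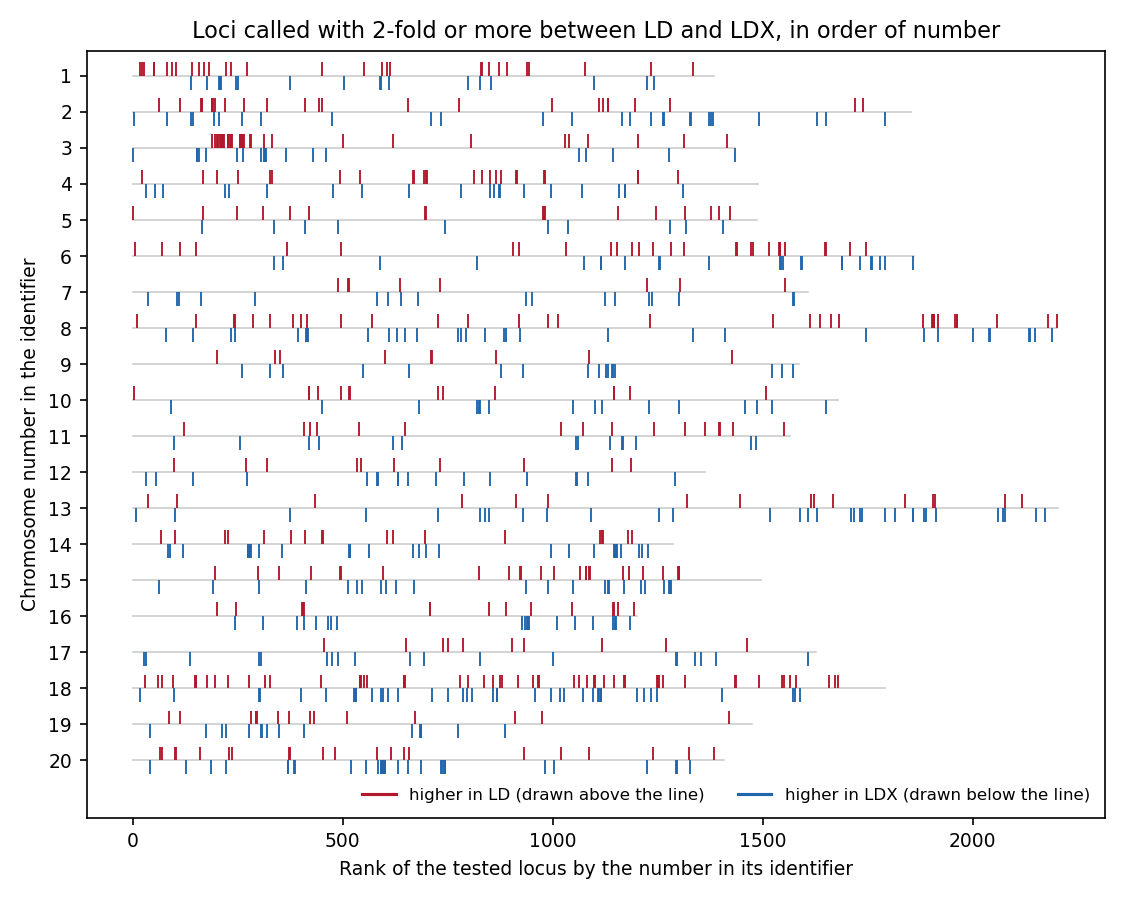
Each tick is a locus called with a 2-fold difference or more, placed by the rank of its number among the tested loci of its chromosome, with red ticks above the line for higher in LD and blue ticks below it for higher in LDX. Red ticks crowd the early part of chromosome 3, where 15 of 16 called loci of 1 block were higher in LD, and ticks of both colours are dense on chromosome 18.

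Chromosome 18 also held a short, abundant stretch near its start, chosen here after its values were seen. Locus 2580 stood higher in LD, at 396 ± 151 CPM against 40 ± 15 CPM in LDX (SD, n = 3; log2 3.31, edgeR adjusted p = 0.000825). Locus 2610 was at 526 ± 95.2 CPM in LD and 76.7 ± 10.2 CPM in LDX (log2 2.78, edgeR adjusted p = 0.00108). Between them, locus 2600 was scarcer, at 4.89 ± 0.805 and 0.707 ± 0.103 CPM (log2 2.79, edgeR adjusted p = 0.000133). Locus 2590 had means of 549 ± 224 and 167 ± 124 CPM and was not called (log2 1.71, edgeR adjusted p = 0.246), its pools varying widely in both parents. The flanking loci 2570 and 2620 had log2 values of -0.33 and 0.75 and were not called. In R-11268 the means were 50.7 CPM for locus 2580, 0.772 for 2600 and 146 for 2610, and in R-11272 they were 126, 4.23 and 245 CPM. Among the 3 called loci, only locus 2600 was called between the inbred lines (log2 -2.44, edgeR adjusted p = 0.000694).

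The difference between the inbred lines is a separate contrast of the same fit, whose libraries did not enter the parental means. Of the 1003 transcripts that differed between the parents, 204 (20.3%) were also called between R-11268 and R-11272 in mock leaves, where 322 of all 32172 tested (1%) were called, with R-11268 above for 151 (0.469%) and R-11272 above for 171 (0.532%). These 204 make up 63.4% of the calls between the inbred lines. The contrasts have different libraries in their means but share the filter and the estimate of spread per transcript, and the part of this in their overlap was not tested. With 1 R-11268 library left out the 204 became 116 (replicate 1), 130 (replicate 2) or 127 (replicate 3), without R-11272 replicate 2 they became 122, and without the 3 libraries that stood apart 359.

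The sign of the difference between the inbred lines varied with the chromosome. On chromosomes 2, 5, 7, 8, 19 and 20, all 69 transcripts called in both contrasts had the same sign, higher in R-11268 where LD exceeded LDX and lower where it did not. There were 16 on chromosome 2, 14 on chromosome 20 and 13 each on chromosomes 5 and 8. On chromosome 18 the sign was mostly opposite, with 31 of 38 opposite and 7 the same. Opposite signs were also the larger part on chromosomes 3 (7 of 8), 15 (6 of 8), 12 (5 of 8) and 10 (2 of 3), and on chromosome 9 there was 1 of each. Over the chromosomes other than 18, 126 of 163 had the same sign. The split of chromosome 18 was 50 opposite and 10 the same without the 3 libraries that stood apart. In that setting 110 of 113 on chromosomes 2, 5, 8, 19 and 20 had the same sign, against 66 of 66 in the main fit. Chromosome 7, with 3 transcripts in the main fit, was not in this tally. The chromosomes with no opposite sign were grouped after their signs were seen.

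**Figure D5:**
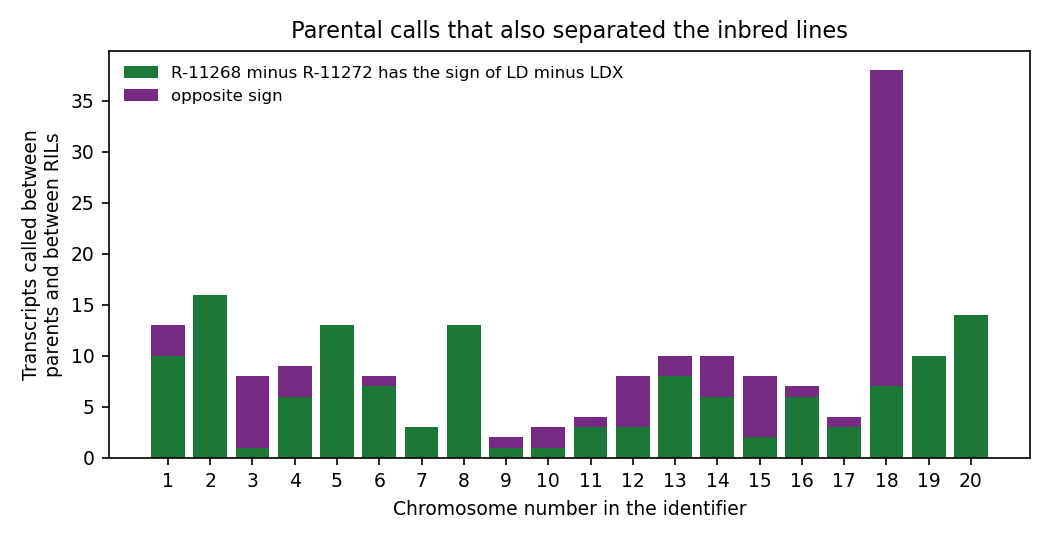
Bars count, for each chromosome, the transcripts called both between LD and LDX and between R-11268 and R-11272 in mock leaves. Green marks the same sign in both contrasts and purple the opposite sign, which holds for 31 of 38 transcripts on chromosome 18 and for none of the 16 on chromosome 2.

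The fullest blocks showed whole stretches in which an inbred line sided with 1 parent. Each called locus was placed nearer to LD or to LDX by its mean on the scale of log2(CPM + 0.1). This places lines by the parental means that chose the loci, and is a description. In the chromosome 18 block from 8630 to 10120, all 8 called loci were nearer to LDX in R-11268 and nearer to LD in R-11272. Locus 9220 of this block held 3.82, 4.11 and 5.86 CPM in the LDX libraries and 0 in those of LD. By the same floor LDX was at least 64.5-fold higher (edgeR adjusted p = 0.000306). It stood at 3.01 CPM in R-11268 and at 0 in R-11272. Locus 9420 had the same order, with a mean of 2.89 CPM for LDX, 2.82 CPM for R-11268 and no rounded count in LD or R-11272 (edgeR adjusted p = 0.000222 between the parents).

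On chromosome 20 the lines sided the other way. From 24580 to 25440 all 10 called loci were nearer to LD in R-11268, and 9 of 10 were nearer to LDX in R-11272. The chromosome 2 block from 2660 to 3370 had 8 of 8 nearer to LD in R-11268 and 8 of 8 nearer to LDX in R-11272. On chromosome 6, the run from 41850 to 41890 was mixed between the parents, with 2 loci higher in LD and 2 higher in LDX. There locus 41870 held 0.579 CPM in LD and no rounded count in LDX, against 0.748 CPM in R-11268 and 0.159 CPM in R-11272 (edgeR adjusted p = 5.38e-05 between the parents and 0.00262 between the inbred lines).

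Over all chromosomes, 885 called transcripts of 2-fold or more could be placed. R-11268 was nearer to LD for 540 and nearer to LDX for 345, and R-11272 was nearer to LD for 391 and nearer to LDX for 494. Both lines sided with LD for 266 and both with LDX for 220. R-11268 sided with LD and R-11272 with LDX for 274, and the reverse held for 125. On chromosome 18 alone, R-11268 sided with LD for 20 and with LDX for 78, while on chromosome 3 R-11272 sided with LD for 52 and with LDX for 5.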

How the data were processed

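RNA of leaf pools was sequenced from TruSeq libraries, per the labels. The submitters' processing notes list the tools Cufflinks 1.1.0, TopHat 1.4.1 and Bowtie 0.12.7. The build, the annotation and the step behind the values were not given in the sources used here. The deposited table holds estimated counts, read as such because they are not whole and column totals differ like library sizes. They are fitted values. Within each line the ratio of MAMP to mock values was the same in the 3 replicates (99th percentile of its SD 2e-09 on the log2 scale), so the spread between mock libraries is that of the pools over both treatments. The column letters C and P were read as mock and MAMP.

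Values were rounded and fitted with edgeR 4.0.16 (R 4.3.3): filterByExpr (minimum count 10, total 15), TMM scaling and 1 quasi-likelihood fit of 4 line means over the 12 mock libraries, with 8 residual degrees of freedom, so that each pool entered once. The test bounds each p-value by counting error. CPM are TMM-scaled, and each SE is the fold change over the root of its F. Counting intervals (95%, Clopper-Pearson) and floors of 3 counts cover counting error only. Scaling, filter, rounding, the libraries fitted, the replicate block, limma 3.58.1 and DESeq2 1.42.0 were tried as alternatives. The fit was tested on simulated counts with known changes between LD and LDX, drawn independently for each library with the same spread in all lines. It called 1 of 67 changes of 2-fold, 38 of 67 of 4-fold and 64 of 66 of 8-fold, with 7 false calls.

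With no names for any identifier, the gene and marker lists planned for this comparison could not be applied (0 matched), and no tissue was checked. The named transcripts are the 2 in each direction with the largest difference of mean CPM among calls whose libraries do not overlap. Members, lists, blocks and comparisons were chosen with earlier results of these data known. The blocks and runs, and the stretch of chromosome 18, were described after their values were seen.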

Additional observations from a re-analysis of the deposited data

How the results depend on the processing

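Against 1003 calls, of which 893 were of 2-fold or more and 204 were shared with the inbred lines, a mean of 100 or more estimated counts gave 117, 112 and 22 (240 of the 1003 have such a mean), all 24 libraries gave 1741 calls and 342 shared, and the 6 parental libraries alone gave 382 calls, all of 2-fold or more, with no value for the inbred lines. Without the 3 libraries that stood apart, an alternative chosen after seeing the data, there were 2682, 1761 and 359. Leaving out 1 library gave 537 to 1358 calls, 531 to 1113 of 2-fold or more and 116 to 216 shared. With the replicate block in the model there were 619 calls, 613 of 2-fold or more and 127 shared. LD and LDX libraries of the same number had deviations that correlated at 0.527, -0.422 and -0.541. Deviations within a line cancel out, so these values depend on each other. They cannot show whether the numbers pair pools across lines. DESeq2 gave 1481 calls and no filter 1456, and the count differed by less than 1.5 times under RLE and upper-quartile scaling, limma, unrounded values and sums over pools. No direction turned among the 4 named transcripts in 24 alternatives, and only Glyma18g16060.1 lost its call, in 4 of them, the block (adjusted p = 0.0645) among these. Of the 1003, 336 were called in every alternative that tested them. Chromosome 18 had the highest share in all alternatives but the mean of 100. The causes were not tested.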
